A study of Trifolium repens with 6 samples.

Results

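In petals of a red-flowered white clover mutant, 58 abundant transcripts had lower levels in shaded than in field plants, out of 152107 assembled transcripts (unigenes) in all. The shaded group was the mutant kept under a shading net over the top of the plants from before flowering, with petals recorded as white. The field group was the same mutant left in the open field, with petals recorded as red. Both groups carry the mutation, no other genotype is compared here, and the labels give 3 petal RNA libraries for each. No label tells if libraries within a condition were made from different plants or from a petal pool, so the spread between them may be partly technical, and the net may have changed more than the light on the flowers.

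The members were chosen by their measured levels in the same 6 libraries. FPKM is the number of fragments divided by transcript length and by sequencing depth, so it compares transcripts per length. A member was at least 500 bases long, had an FPKM of at least 10 in every shaded library and at least 100 in every field library, and its lowest field value was at least 2 times its highest shaded value. Of 646 unigenes that met the length and level criteria, 588 missed only the 2-fold limit, and the 58 members were 8.98% of the 646. Because the rule used both conditions, the lower shaded level of the members is a description and is not tested here.

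White clover (Trifolium repens) is an allotetraploid legume, so a transcript can have close copies from each parental genome. Red petal colour in plants commonly comes from anthocyanins, flavonoid pigments made by a chain of enzymes whose genes respond to light in many species. Petals also carry abundant transcripts for cell walls, sugar transport, scent and defence. The deposited tables pair no unigene with a gene name, function or sequence, so none of the members is assigned to any of these roles, and the petal identity of the samples was not checked against markers. Members are called here by their length in bases, which differs for each of the 58.

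The members made up 0.456%, 0.689% and 0.751% of all expected counts in shaded libraries 1 to 3, against 4.06%, 4.55% and 3.18% in field libraries 1 to 3. The means were 0.632% ± 0.156 and 3.93% ± 0.692 (SD, n = 3 each). Their summed FPKM averaged 4475 ± 1034 in shaded petals and 28305 ± 4947 in field petals, 6.33 times as much in the field. The median member had a mean of 52.2 FPKM under shade and 294 FPKM in the field. In bulk petal RNA, fewer cells of a type and less RNA per cell cannot be told apart.

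Their place among the petal transcripts moved with the level. Ranked by mean FPKM among the 60810 unigenes of at least 500 bases, 1 member was within the first 100 in shaded petals, against 17 in field petals. Within the first 500 there were 2 in shaded petals and 49 in field petals. The median rank of a member was 2300 under shade and 221 in the field. The rule required 10 FPKM in every shaded library, and the shaded means were 13.6 to 710.2 FPKM, against field means of 119 to 3385 FPKM.

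**Figure D1:**
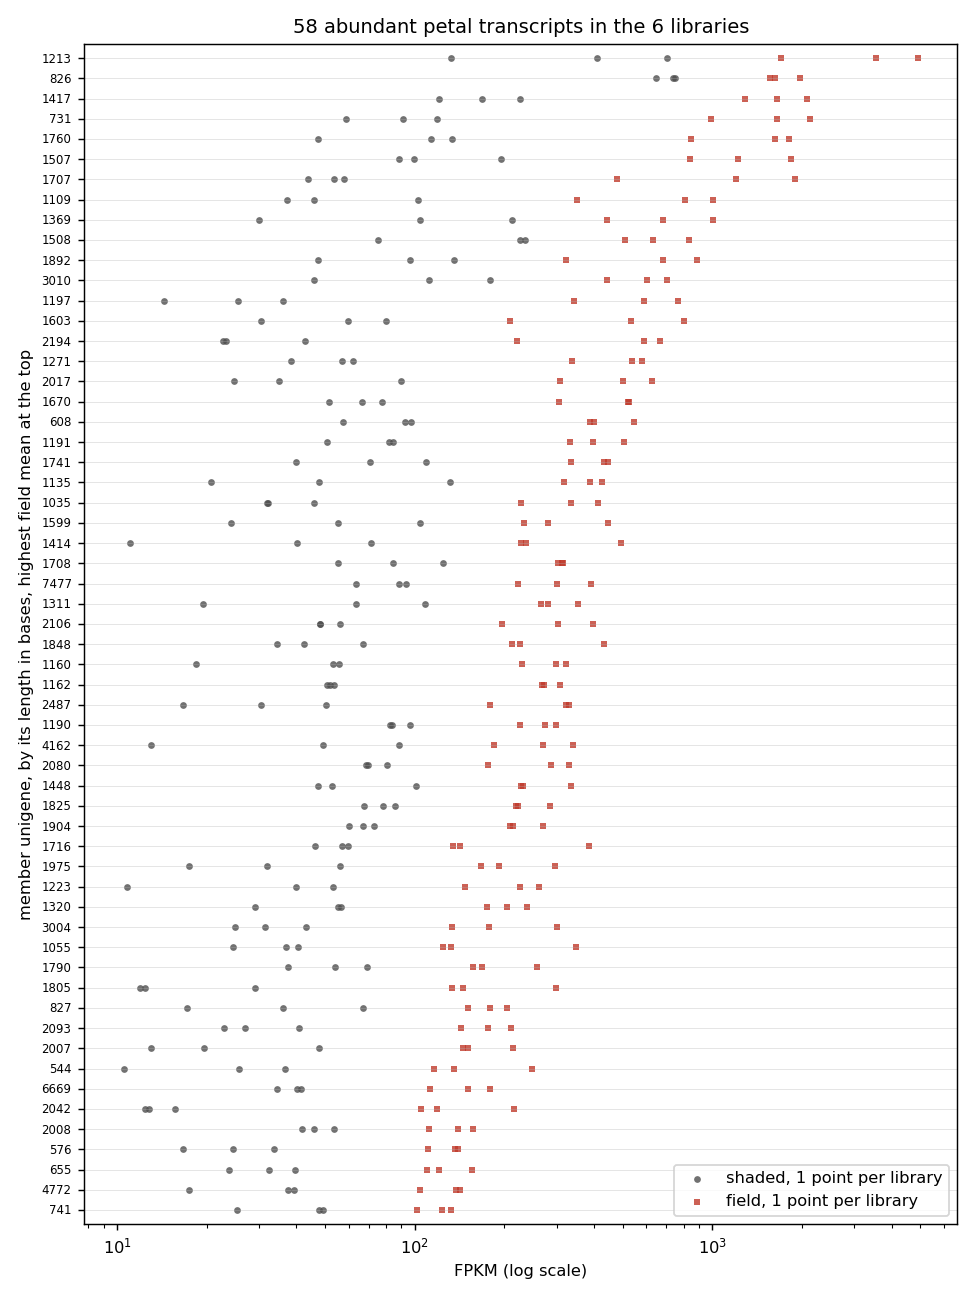
FPKM (log scale) of each of the 58 members in the 3 shaded libraries (grey circles) and the 3 field libraries (red squares), 1 row per member, labelled by length in bases and ordered by field mean. Shaded and field points do not overlap in any row, which the selection requires; the shaded points span 10.5 to 750.4 FPKM and the field points 102 to 4897 FPKM.

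In all, 7 members averaged over 1000 FPKM in field petals, and none did under shade. The most abundant, Unigene22931_All (1213 bases, a single unigene), had 133, 410.0 and 703 FPKM in shaded libraries 1 to 3, against 3558, 4897 and 1699 FPKM in field libraries 1 to 3. It ranked 151st in shaded petals and 5th in field petals. Its libraries spread widely in both conditions, 5.30-fold between the highest and lowest shaded library and 2.88-fold between the field libraries. Its log2 fold change, shaded over field, was -3.10 ± 0.84 (SE, n = 3 each).

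The 826-base unigene, the second most abundant in the field, had the smallest change of all members. It had 644, 737 and 750.4 FPKM in shaded petals and 1623, 1972 and 1564 FPKM in field petals. Each condition kept within a narrow band, and the log2 fold change was -1.35 ± 0.12. It was the member with the highest shaded level, 710.2 ± 57.9 FPKM (SD, n = 3).

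The other 5 members above 1000 FPKM in the field had shaded means under 200 FPKM. The 1417-base unigene had 168, 225 and 120.1 FPKM in shaded petals, against 1645, 2079 and 1285 FPKM in field petals. For the 731-base unigene the shaded values were 119, 91.5 and 58.7 FPKM and the field values 2123, 1654 and 986 FPKM. The 1760-base unigene showed 47.4, 113 and 133 FPKM under shade and 1624, 1803 and 846 FPKM in the field. In all 3 the lowest field library was field 3, and the log2 fold changes were -3.36, -4.23 and -3.93.

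The same low field 3 value was seen in the other 2. Shaded values of the 1507-base unigene were 88.8, 195 and 99.7 FPKM, and its field values were 1217, 1832 and 839 FPKM. The 1707-base unigene had 57.6, 43.6 and 53.3 FPKM in shaded petals and 1888, 1201 and 477 FPKM in field petals. That member had the most negative log2 fold change of the 58, -4.60 ± 0.62, and the widest spread among field libraries, 3.96-fold, while its shaded libraries differed by 1.32-fold.

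Members 8 to 10 in field level completed the 10 most abundant. The 1109-base unigene had 102, 37.2 and 46.0 FPKM under shade, against 1007, 809 and 351 FPKM in the field. The 1369-base unigene had 30.0, 104 and 212 FPKM in shaded petals and 1003, 684 and 444 FPKM in field petals, and its 7.06-fold spread among shaded libraries was the widest of any member. Values of 75.1, 226 and 234 FPKM in shaded and 509, 834 and 630.1 FPKM in field petals were found for the 1508-base unigene. Over the 10 most abundant members the median log2 fold change was -3.38, beside -2.55 over the other 48. This is a description: the selection limits these values from above, and the ranking used the field level that enters the fold change.

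**Figure D2:**
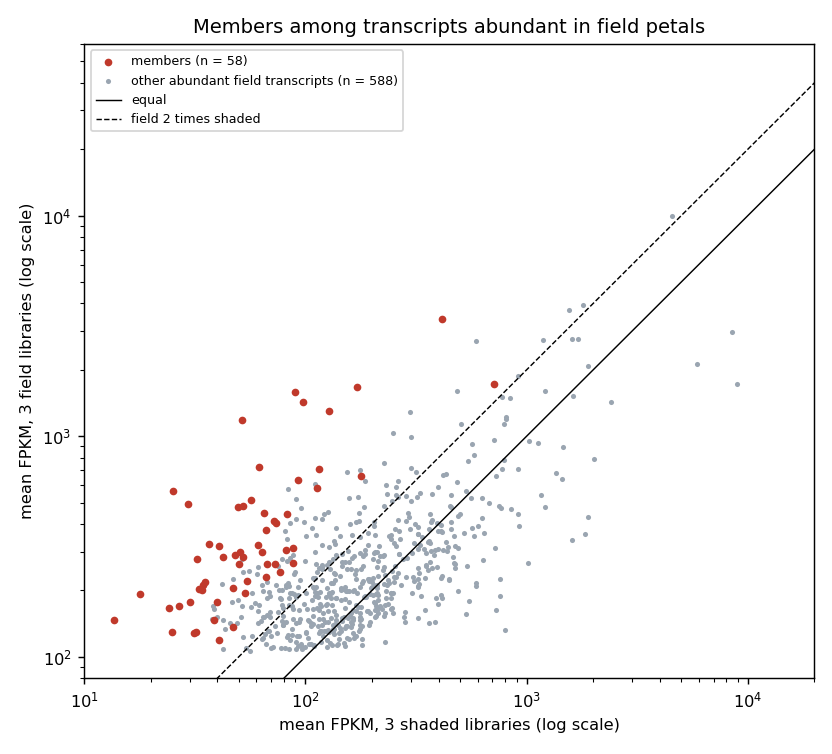
Mean FPKM in the 3 shaded libraries against mean FPKM in the 3 field libraries (both log scale) for the 58 members (red) and the 588 other unigenes that met the length and level criteria (grey); the solid line marks equal levels and the dashed line a field level 2 times the shaded level. The members lie above the dashed line by construction, from a field mean of 119 FPKM up to 3385 FPKM.

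The widest gap between conditions, by lowest field over highest shaded value, was 9.55-fold in Unigene21047_All (1197 bases, a single unigene). It had 25.5, 36.0 and 14.4 FPKM in shaded libraries 1 to 3 and 589, 766 and 344 FPKM in field libraries 1 to 3. It ranked 70th in the field and 4812th under shade, with a log2 fold change of -4.56 ± 0.51. The next gaps were 8.31-fold in the 731-base and 8.29-fold in the 1707-base unigene, both described above, and 6.69-fold in the 2042-base unigene. The last of these had 12.4, 15.7 and 12.8 FPKM in shaded and 105, 119 and 215 FPKM in field petals, and its shaded mean of 13.6 FPKM was the lowest of any member. The 1760-base unigene followed with 6.37-fold.

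Over all 58 members the gap had a median of 3.05-fold. It was 2 to 3-fold in 28 members, 3 to 5-fold in 22 and at least 5-fold in 8. Just inside the limit were the 741-base unigene at 2.07-fold and the 2008-base and 826-base unigenes, both at 2.08-fold. The 741-base unigene had 25.3, 49.1 and 47.7 FPKM in shaded and 133, 124 and 102 FPKM in field petals, and the 2008-base unigene had 41.9, 45.7 and 53.4 FPKM in shaded and 157, 140.1 and 111 FPKM in field petals. Just outside were unigenes of 1154, 2971 and 1764 bases with gaps of 1.99, 1.98 and 1.97-fold. The 1764-base unigene had 21.1, 39.9 and 65.1 FPKM in shaded and 309, 205 and 128 FPKM in field petals, a log2 fold change of -2.42, so its 2 extreme libraries and not its mean kept it out.

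At the field limit, the 741-base member had a lowest field value of 102 FPKM, and an 1814-base unigene was left out at 98.9 FPKM. At the shaded limit, the 544-base member had a lowest shaded value of 10.5 FPKM, and a 2181-base unigene was left out at 8.45 FPKM in shaded library 1. That unigene had 51.1 and 90.2 FPKM in shaded libraries 2 and 3, and 542, 427 and 192 FPKM in field libraries 1 to 3. At the length limit the same 544-base member was inside and a unigene of 485 bases was outside.

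All 58 members had enough counts for the test across all unigenes, in which 46778 unigenes were compared with edgeR. At an adjusted p under 0.05 (Benjamini-Hochberg), 54 of the members were called lower under shade, and nothing is read from this count, since the rule used the same contrast. Over all tested unigenes 5.53% were called lower and 4.72% higher, and over the 646 abundant field transcripts 15.5% were called lower and 3.1% higher. The 646 include the members; of the other 588, 7.82% were called lower and 3.40% higher. The median log2 fold change was -2.62 over the members (range -4.60 to -1.35), -0.41 over the other 588 abundant transcripts and -0.02 over all tested unigenes. The 646 had to reach 100 FPKM in every field library but only 10 FPKM in every shaded library, with no upper limit under shade.

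The 4 members that missed the threshold, with lengths of 1369, 1135, 1311 and 4162 bases, had adjusted p-values of 0.0519 to 0.0672 in edgeR. They shared a wide spread under shade, with 5.59 to 7.06-fold between the highest and lowest shaded library. The 1135-base unigene had 20.7, 47.6 and 131 FPKM in shaded petals, against 425, 388 and 318 FPKM in field petals. For the 1311-base unigene the values were 19.4, 63.4 and 108 FPKM under shade and 266, 353 and 279.9 FPKM in the field. The 4162-base unigene had 12.9, 49.1 and 88.7 FPKM in shaded and 269, 339.7 and 185 FPKM in field petals. In all 4, shaded library 1 was the lowest and shaded library 3 the highest, while by the rule no shaded value reached a field value. The count of called members was 26 without shaded replicate 1 and 13 without shaded replicate 2. In these fits 1.3% and 0.778% of all tested unigenes were called lower.

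Counting error was small beside the spread between libraries. The lowest expected count of any member in a library was 59.6 under shade and 623 in the field, and the median counts were 1396 and 6963. The coefficient of variation between libraries had a median of 36.8% in shaded and 27.7% in field petals. The coefficient of variation that counting alone gives at a member's lowest count had a median of 3.37% and 1.36%. The spread between libraries exceeded the counting error in 57 members under shade and in all 58 in the field.

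The exception under shade was the 1162-base unigene, the steadiest member. It had 53.5, 50.6 and 51.8 FPKM in shaded petals and 307, 271 and 268 FPKM in field petals, and its log2 fold change was -2.51 ± 0.11. In 5 members, all shaded values lay within 1.4-fold of each other and so did all field values. Besides the 1162-base and 826-base unigenes these were the 1190-base, 1825-base and 1904-base unigenes. The 1190-base unigene had 83.9, 96.5 and 82.7 FPKM in shaded and 273, 226 and 297 FPKM in field petals. Log2 fold changes of these 5 ranged from -2.51 to -1.35. The limit of 1.4-fold was chosen after the values were seen.

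Most members were less steady than that. The highest shaded value was a median of 2.03 times the lowest over the members, against 1.38 times over the other 588 abundant transcripts. In field petals the medians were 1.74 and 1.50 times. These medians are a description, and no test of the difference was made, since the rule sets a floor on shaded levels and chose on the extremes of each condition.

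The order of the libraries within a condition was uneven across members. Shaded library 1 gave the lowest shaded FPKM in 37 of 58 members (63.8%), shaded library 3 in 17 and shaded library 2 in 4. Of the other 588 abundant transcripts, 50.9% had their lowest shaded value in shaded library 1. Field library 3 gave the lowest field value in 33 members (56.9%) and the highest in 17 (29.3%), against 43.4% and 31.6% of the other abundant transcripts. With TMM-scaled CPM, counts relative to library size, in place of FPKM, shaded library 1 was lowest in 37 members and field library 3 in 36. Expected counts summed to between 14221859 and 20414104 per library, highest in shaded library 1.

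The members differed in the place of field library 3 among the field libraries. In the 33 members with field library 3 lowest, it held a median of 0.624 times the mean of field libraries 1 and 2, and as little as 0.309 times. In the 17 members with it highest, it held a median of 1.58 times that mean, and up to 2.78 times. The grouping sets the direction of these ratios, so only their size is a description. All 7 members over 1000 FPKM in the field were of the first kind. The median log2 fold change was -2.69 in the first kind and -2.62 in the second.

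The 1892-base and 1603-base unigenes had the highest field means of the second kind. The 1603-base unigene had 30.4, 80.1 and 59.5 FPKM in shaded petals, against 209, 532 and 803 FPKM in field petals, a 3.85-fold spread among field libraries. The 1892-base unigene had 47.3, 136 and 96.0 FPKM in shaded and 322, 684 and 886 FPKM in field petals. Of the first kind, the 2194-base unigene had 22.8, 23.2 and 42.6 FPKM in shaded and 665, 591 and 219.7 FPKM in field petals, the next field spread in width at 3.03-fold. In each of these 3 members all shaded values lay below all field values, which the rule requires.

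Shaded libraries also split the members. FPKM rose from shaded library 1 to 2 to 3 in 43.1% of the members, beside 40.8% of the other 588 abundant transcripts. In 17 members the highest shaded value was over 3 times the lowest, and in 12 of these shaded library 1 was lowest and shaded library 3 highest. In the other 5 shaded library 3 was lowest, among them the 1414-base unigene with 40.2, 71.2 and 11.1 FPKM in shaded and 236, 494 and 228 FPKM in field petals. That unigene and the 1369-base and 4162-base unigenes had the 3 widest shaded spreads, at 6.43, 7.06 and 6.85-fold. Of the 17 members with field library 3 highest, 13 had their highest shaded value in shaded library 2 and none in shaded library 1. Of the 33 with field library 3 lowest, 18 had it in shaded library 3, 9 in shaded library 2 and 6 in shaded library 1. Such counts are not given for the other 588 abundant transcripts, so nothing particular to the members is read from them.

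**Figure D3:**
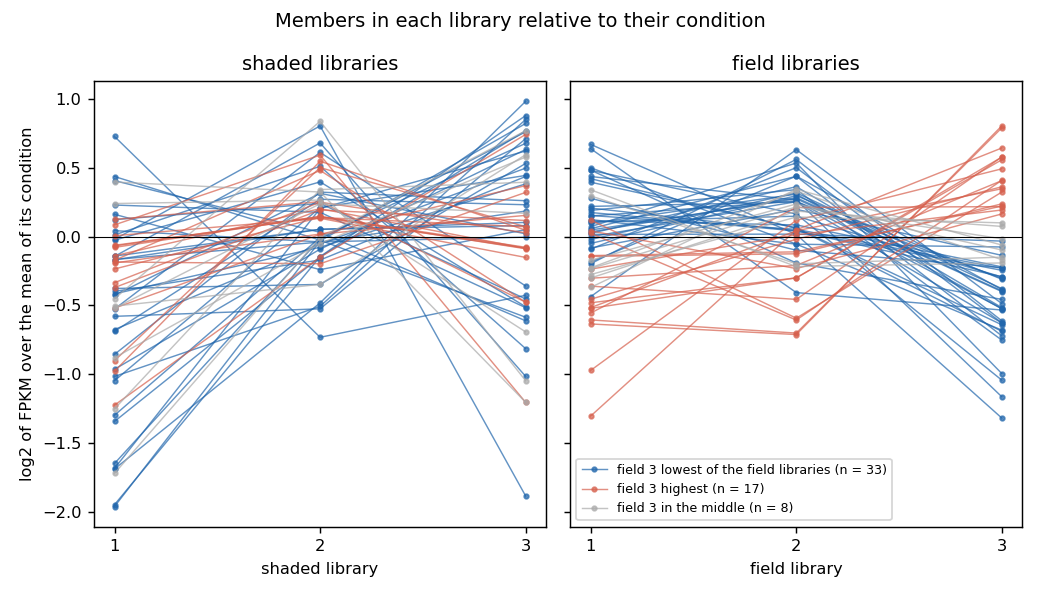
Log2 of a member's FPKM over its mean in the same condition, for the 3 shaded libraries (left) and the 3 field libraries (right); a line joins the values of 1 member, library numbers carry no order, and colour shows whether field library 3 was lowest (blue, 33 members), highest (red, 17) or in the middle (grey, 8) among field libraries. Shaded library 1 lies below the line of the mean for most members. Field library 3 is lowest in some members and highest in others, which is how the colours were assigned.

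A measure of fragment length also differed between the libraries. The length of a unigene minus its effective length, here calculated from count and FPKM, is a measure that follows fragment length. Its median was 163 bases in shaded library 1 and 166 and 168 bases in field libraries 1 and 2. It was 205 and 211 bases in shaded libraries 2 and 3 and 228 bases in field library 3. Shaded library 1 and field library 3, the libraries most often lowest for the members, thus each stood in the class that their condition held once. These classes were opposite, short fragments for shaded library 1 and long fragments for field library 3. The part of fragment length in the members' values was not tested, and the labels do not say that the classes mark a batch.

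The lower shaded level was present within each class. In the short-fragment class, shaded library 1 against field libraries 1 and 2, the members had a median log2 fold change of -3.14 (range -5.23 to -1.53), beside 0.06 over all tested unigenes. In the long-fragment class, shaded libraries 2 and 3 against field library 3, the median was -2.36 (range -3.97 to -1.09), beside -0.01 over all tested unigenes. Each class has 1 condition with a single library, so these are effect sizes without a test. The sign is set by the rule in both classes.

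The size differed between the classes for a part of the members. It was more negative in the short class in 42 members and in the long class in 16. Low values in shaded library 1 or in field library 3 both make the short-class value the more negative. This count thus partly restates the library order given above. In 35 members the 2 values were within 1 log2 unit of each other. In 20 the short-class value was over 1 log2 unit more negative, Unigene22931_All among them with -5.03 and -1.71. In 3 members the long-class value was over 1 log2 unit more negative, for example the 1055-base unigene with -1.84 and -3.50. That unigene had 37.0, 40.5 and 24.4 FPKM in shaded and 133, 124 and 348 FPKM in field petals, with field library 3 far above the other field libraries.

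**Figure D4:**
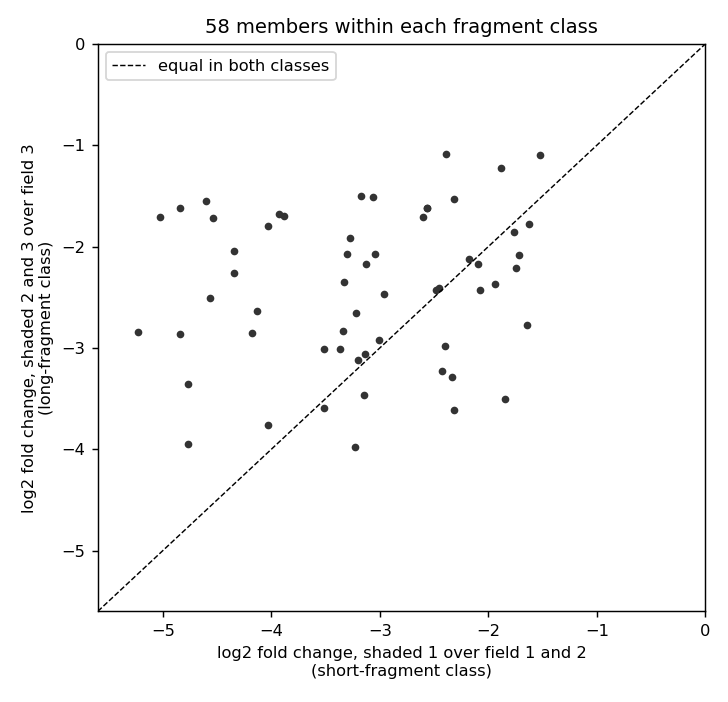
Log2 fold change (shaded over field, log2 CPM) of each of the 58 members within the short-fragment class (x axis, shaded library 1 over field libraries 1 and 2) and within the long-fragment class (y axis, shaded libraries 2 and 3 over field library 3); the dashed line marks equal values. Points above the line, 42 of 58, had a more negative value in the short-fragment class.

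By type, 24 members were single unigenes and 34 were contigs of an assembly cluster, a set of similar sequences that can hold copies, alleles or splice forms. Contigs made up 58.6% of the members and 55.4% of the other 588 abundant transcripts. Member lengths had a median of 1601 bases (range 544 to 7477), against 1422 bases in the other abundant transcripts and 1509 bases in 90 unigenes that met the mirrored rule of higher levels under shade. The quartiles of the members were 1190 and 1999 bases. Neither type nor length beyond the 500-base limit was used by the rule.

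RSEM, the program that counted the reads, divides a read among the unigenes it matches, which gives counts that are not whole. In 17 members, 14 of them single unigenes, the expected counts were within 0.005 of a whole number in all 6 libraries. Their median log2 fold change was -2.80, beside -2.53 in the 41 members with divided reads. Unigene22931_All was among the 17. This difference was not tested.

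The 34 contigs came from 29 clusters, 5 of which held a pair of members. These clusters had 107 contigs in all, so 73 contigs were no members. Of the 46 that could be tested, 23 (50%) were called lower under shade and none higher in edgeR, against 5.53% and 4.72% of all tested unigenes, and 42 had a negative log2 fold change. Their median log2 fold change was -2.12. A contig could enter the test through its field counts alone. Contigs of a cluster can share reads, so their values are tied to those of the members, and how much of the shared direction comes from divided reads was not tested.

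Among the non-member contigs, 37 in 22 clusters reached a mean of 10 FPKM in either condition. Of these, 17 reached it in the field alone and 1 under shade alone, so their direction was partly set by this limit and nothing is read from it. Of the 19 that reached it in both conditions, 17 had all shaded values below all field values and 2 overlapped. Over all tested unigenes, 16.9% had all shaded values below all field values and 20.3% had all above. Over the 646 abundant field transcripts, the 58 members included, these shares were 39.9% and 14.9%.

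Some pairs of members in a cluster had like profiles. Both contigs of a pair met the same rule and can share reads, which can make them alike. The contigs of 608 and 655 bases had 57.4, 97.1 and 92.5 FPKM and 23.7, 39.6 and 32.3 FPKM in shaded petals, against 545, 387 and 400.4 FPKM and 156, 120.3 and 110.3 FPKM in field petals. The contigs of 2106 and 2080 bases had log2 fold changes of -2.62 and -1.93 and both had their highest field value in field library 3. In a cluster of 4 contigs, the members of 1975 and 2007 bases had log2 fold changes of -2.70 and -2.73. The 2 remaining contigs of that cluster, 1954 and 2037 bases long, had -3.49 and -3.36 and missed the rule because a shaded library was under 10 FPKM. The members of 1825 and 1904 bases were -1.71 and -1.86, and another contig of their cluster, 2829 bases long, was -1.83. In shaded petals the 1825-base member had 67.4, 77.9 and 85.6 FPKM and the 1904-base member 66.8, 72.9 and 59.9 FPKM. Shaded library 3 was thus highest in the 1825-base member and lowest in the 1904-base member.

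The pair of 1271 and 6669 bases was less alike. The 1271-base contig had 57.1, 61.9 and 38.3 FPKM in shaded and 537, 579 and 337 FPKM in field petals, a log2 fold change of -3.28. The 6669-base contig had 34.4, 40.1 and 41.5 FPKM in shaded and 151, 179 and 112 FPKM in field petals, a log2 fold change of -1.98. Another contig of their cluster, 5636 bases long, had the opposite sign. It had 12.4, 10.8 and 21.2 FPKM in shaded and 6.77, 6.47 and 8.09 FPKM in field petals, a log2 fold change of 1.0 that did not pass the test (adjusted p = 0.0874 in edgeR).

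In 16 of the 29 clusters the members held over 90% of the cluster's counts in field petals, and their median share was 94.7% in shaded and 96.6% in field petals. In 4 clusters the member held under 50% in the field. One was the cluster of the 1508-base member, with 34.9% of the counts in both conditions. Its other contigs, of 1757 and 1475 bases, had log2 fold changes of -2.11 and -1.80 beside -1.94 in the member. Another was the cluster of the 3010-base member. That member had 45.8, 112 and 179 FPKM in shaded and 601, 703 and 441 FPKM in field petals, and a 2968-base contig had 167, 324 and 414 FPKM in shaded and 1034, 1171 and 785 FPKM in field petals. The second contig was more abundant but missed the 2-fold limit at 1.90-fold.

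The 576-base member held the lowest share of its cluster among the 29 clusters, with 6.64% of the cluster's counts in shaded and 10.2% in field petals. It had 33.7, 24.5 and 16.6 FPKM in shaded petals, against 139.6, 137 and 111 FPKM in field petals. A 923-base contig of the cluster had 0.91, 1.21 and 1.24 FPKM under shade, but 4.94, 114 and 102 FPKM in the field. A 516-base contig had 15.1, 6.44 and 1.16 FPKM under shade and 7.58, 94.7 and 114 FPKM in the field, so its conditions overlapped. Field library 1 was therefore low in these contigs and the highest in the member. The contig of the 1848-base member's cluster with the largest change, 1775 bases long, had 1.96, 1.22 and 1.02 FPKM in shaded and 29.4, 40.8 and 45.4 FPKM in field petals, a log2 fold change of -4.82 beside -2.67 in the member.

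Summed over all contigs of a cluster, the lowest field FPKM was at least 2 times the highest shaded FPKM in 23 of the 29 clusters. In the other 6 it was 1.61 to 1.94-fold. These 6 were the clusters of the members of 1508, 741, 1708, 4772, 1135 and 576 bases. The 1708-base member had 55.1, 84.8 and 124 FPKM in shaded and 313, 314 and 303 FPKM in field petals, the narrowest field spread of all members at 1.04-fold, and its part of the cluster's counts was 43.9% under shade and 54.5% in the field.

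**Figure D5:**
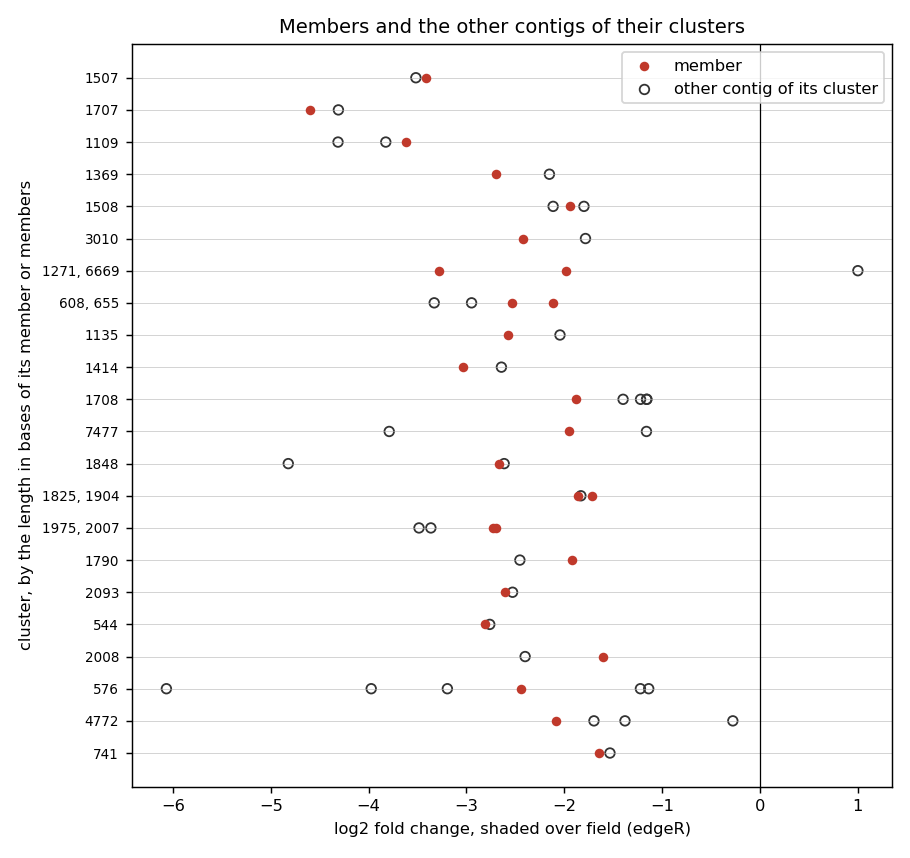
Log2 fold change (shaded over field, edgeR) of members (red) and of other contigs with a mean of at least 10 FPKM in either condition (open circles) in the 22 clusters that hold both, 1 row per cluster, labelled by the length in bases of its members. The members lie left of 0 by the rule, and 17 of the 37 other contigs reached 10 FPKM in the field alone, which partly sets their side; the contig right of 0, of 5636 bases at 1.0, reached it under shade alone.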

How the data were processed

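Petal RNA was sequenced in 3 shaded and 3 field libraries. The deposited tables give an expected count, an FPKM value, a length and an effective length per unigene, per the file headers. RSEM 1.2.12 and DESeq are named in the submitters' processing notes; how reads were assembled, aligned and filtered is not given in the sources used here. The deposited expected counts were rounded and fitted with edgeR 4.0.16 (R 4.3.3), using TMM factors, filterByExpr with a minimum count of 10, the quasi-likelihood test and Benjamini-Hochberg adjusted p-values under 0.05. Log2 fold changes printed with a standard error are from the edgeR fit. The standard errors are of the difference in mean log2 CPM with a prior count of 2, a separate estimate. Effective lengths were calculated from the expected count, the FPKM and the summed expected count of the library, and were not taken as deposited. Unigenes with over 200 counts were used, and 180 bases separated the fragment classes. The test was tested on simulated data. The simulated libraries held no difference between fragment classes, so that split was not covered. DESeq2 1.42.0 and limma 3.58.1 (on FPKM with pseudocounts of 1 and 0.1) were alternatives. The members and lists were chosen with earlier results of these data known. The text names the 10 members with the highest field mean, the 5 with the widest gap, the 3 with the widest spread in each condition, contigs of up to 5 clusters and members near a limit. Other members and clusters, such as the steadiest members, were named after their values were seen. All 6 libraries were used. Counting errors cover counting alone.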

Additional observations from a re-analysis of the deposited data

How the results depend on the processing

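In every edgeR, DESeq2 and limma fit run, all 58 members had a negative log2 fold change, a sign that the rule sets. Leaving out 1 library at a time called 13 to 50 members lower. Over all tested unigenes it called 408 to 1929 lower and 282 to 2167 higher. It left 62 to 134 unigenes meeting the rule: 134 without shaded replicate 3, 99 without field replicate 2 and 128 without field replicate 3. Leaving out a library can only loosen the rule, so all 58 members stayed and the number could not fall. DESeq2 called 4995 unigenes lower and 4243 higher, edgeR without a filter on low counts 6068 and 4349, and limma with a pseudocount of 1 called 4315 and 3903. With fragment class as a covariate the counts were 1216 and 1099, and 42 members were called. The median log2 fold change was -3.14 within the short-fragment and -2.36 within the long-fragment class, which were compared after seeing the data. Without the filter the median over all unigenes was -0.46. The rule was met by 102 unigenes with a 1.5-fold and 30 with a 3-fold limit, and by 103 and 35 with a field minimum of 50 and 200 FPKM. With FPKM rescaled to the same sum in every library (TPM), 66 unigenes met it, 52 of them members. With FPKM divided by TMM factors, 64 met it, the 58 members among them. The members' share stayed lower under shade, by -2.86 percentage points with FPKM in place of counts and -3.30 with counts. Summing FPKM over each cluster was also added after seeing the data, and 67 clusters or unigenes then met the rule. They included the 24 members that are single unigenes and 23 of the 29 clusters that hold a member. The causes were not tested.

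With the replicate number as a block, 11 members were called lower, and 224 unigenes were called lower and 147 higher. Libraries with the same number did not deviate together (r of -0.01, 0.01 and -0.09 across unigenes), so the numbers were not treated as a pairing.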
